A study of Homo sapiens with 2 samples.

Results

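Terminal 9q34, the end of the long arm of human chromosome 9, was examined for peaks of H4R3me2a, histone H4 dimethylated asymmetrically on arginine 3. Its members are all peaks of the authors' table on chromosome 9 with a summit above position 130000000 (GRCh38), chosen by position and not by any measured value. They number 794 of 33353 peaks in all and of 1735 on chromosome 9, and they are set against the 941 peaks of the rest of that chromosome. The study held 1 H4R3me2a immunoprecipitation library and 1 input DNA library, both from HCT116, a human cell line established from a colorectal carcinoma. The cells received no drug, were cross-linked with formaldehyde and were sonicated, and every peak was called for H4R3me2a over input. With 1 library of each kind there is no replicate error and no test between conditions, and each interval below is a 95% interval that covers counting error only. The nearest peaks outside the threshold had summits at 129959116 and 129993607 with pileups of 7 fragments each, and the nearest inside had summits at 130042294 and 130042710 with pileups of 8 and 12 fragments.

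H4R3me2a is placed mainly by the arginine methyltransferase PRMT1 and is known as a mark of active or activatable chromatin. Terminal 9q34 is here a region cut by coordinate and not by band borders, so the rest may hold part of 9q34. The region is gene-dense and GC-rich. It carries the receptor gene NOTCH1, the tumour suppressor gene TSC1 and the kinase gene ABL1. The retinoid receptor gene RXRA, the histone methyltransferase gene EHMT1 and a group of lipocalin genes also lie there. The annotation (GENCODE release 44) placed the 5' ends of 161 protein-coding genes there, or 19.3 per Mb, against 616 genes or 5.43 per Mb in the rest of the chromosome.

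The sequence under a few summits shows what the members look like and how far they differ. Each line gives 201 bases centred on a summit, read from the plus strand of GRCh38, with CpG dinucleotides in capitals. The summits shown had the highest fold in intergenic sequence, the highest pileup in an intron, in coding sequence and in NOTCH1, and the highest and lowest GC content. They were taken among peaks away from UTRs and non-coding exons whose central 32 bases occur once in the genome. A few stronger peaks named further on are not shown, among them a peak of 18 fragments in coding sequence of NELFB.
Intergenic near LHX3, chr9:136189951-136190151: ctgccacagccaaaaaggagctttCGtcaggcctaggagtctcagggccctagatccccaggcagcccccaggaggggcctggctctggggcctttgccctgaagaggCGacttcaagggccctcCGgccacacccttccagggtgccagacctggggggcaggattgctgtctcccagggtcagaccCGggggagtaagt
GPSM1 intron, chr9:136338201-136338401: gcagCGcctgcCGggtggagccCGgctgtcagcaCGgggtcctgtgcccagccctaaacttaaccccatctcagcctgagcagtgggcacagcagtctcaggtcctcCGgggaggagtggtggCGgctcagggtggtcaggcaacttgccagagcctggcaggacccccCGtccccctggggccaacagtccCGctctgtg
NSMF coding sequence, chr9:137457463-137457663: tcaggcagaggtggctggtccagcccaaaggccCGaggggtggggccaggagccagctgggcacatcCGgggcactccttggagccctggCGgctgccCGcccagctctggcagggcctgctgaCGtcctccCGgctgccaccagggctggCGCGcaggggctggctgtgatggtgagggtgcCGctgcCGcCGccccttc
NOTCH1 intron, chr9:136529970-136530170: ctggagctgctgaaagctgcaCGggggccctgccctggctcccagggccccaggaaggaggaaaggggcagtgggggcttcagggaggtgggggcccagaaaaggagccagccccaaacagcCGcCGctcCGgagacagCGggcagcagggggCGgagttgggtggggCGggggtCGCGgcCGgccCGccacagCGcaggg
FNBP1 promoter, highest GC, chr9:130042610-130042810: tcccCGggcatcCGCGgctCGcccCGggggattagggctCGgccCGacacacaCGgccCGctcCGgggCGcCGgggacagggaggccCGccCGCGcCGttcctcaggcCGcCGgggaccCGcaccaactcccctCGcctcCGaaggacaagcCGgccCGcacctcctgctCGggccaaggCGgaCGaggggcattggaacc
ABL1 intron, lowest GC, chr9:130867107-130867307: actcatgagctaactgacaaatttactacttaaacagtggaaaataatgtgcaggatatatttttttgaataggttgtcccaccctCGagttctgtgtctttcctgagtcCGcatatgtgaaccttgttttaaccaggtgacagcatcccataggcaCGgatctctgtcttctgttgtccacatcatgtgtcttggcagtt

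The intergenic sequence, 11623 bp from the nearest TSS of the pituitary transcription factor gene LHX3, had 65.7% GC and 4 CpGs, with a pileup of 16 fragments and a fold of 7.38 over the local background. The GPSM1 intron had 8 CpGs under 19 fragments, the NSMF coding sequence 11 CpGs under 16 fragments, and the NOTCH1 intron 12 CpGs under 17 fragments. At the extremes, the FNBP1 sequence had 77.1% GC and 26 CpGs under 12 fragments, while the ABL1 sequence had 41.8% GC and 3 CpGs under 8 fragments. The GPSM1, NSMF, NOTCH1 and FNBP1 sequences had more CpGs than the members' median of 6, and the sequences near LHX3 and in ABL1 had fewer.

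Peaks were far denser in terminal 9q34 than in the chromosome as a whole. The region held 45.8% of the peaks of chromosome 9 in 6.84% of its sequence other than N. The density was 95.3 peaks per Mb (88.8 to 102) in terminal 9q34 and 8.29 per Mb (7.77 to 8.84) in the rest, a ratio of 11.5 (10.4 to 12.6). Peaks covered 190.6 kb or 2.29% of the region, against 0.181% of the rest. The density did not begin at the threshold: the 2.5 Mb directly before it held 309 peaks, or 124 per Mb, and the remainder of the chromosome had 5.70 per Mb.

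The region was uneven when divided into 17 windows of 500 kb from the threshold. A stretch of 1.5 Mb, chr9:136000001-137500000, held 417 peaks, which is 52.5% (49.0 to 56.0%) of the members in 18.0% of the sequence. Its 3 windows had 112, 153 and 152 peaks, with NOTCH1 in the middle window, and each exceeded the densest window elsewhere on the chromosome, chr9:127500001-128000000, with 98 peaks. Toward the telomere the next window had 28 peaks and the last, which holds 0.335 Mb of sequence other than N and no protein-coding 5' end, had 6. Before the dense stretch, the window of NCS1 had 39 peaks, that of FIBCD1 36 and that of PLPP7 39, and those led by RAPGEF1, NTNG2 and CFAP77 had 9, 10 and 13. The window of the SURF genes, a compact group of housekeeping genes, had 54 peaks. The next 2 windows, led by VAV2 and RXRA, had 43 and 46, those of COL5A1 and PPP1R26 had 12 and 7, and that of KCNT1 had 35. The median density of the 17 windows was 72 peaks per Mb, and all 17 were above 8.29 per Mb, the mean density of the rest. Of 230 windows in the rest with over 250 kb of sequence, 101 had no peak.

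**Figure D1:**
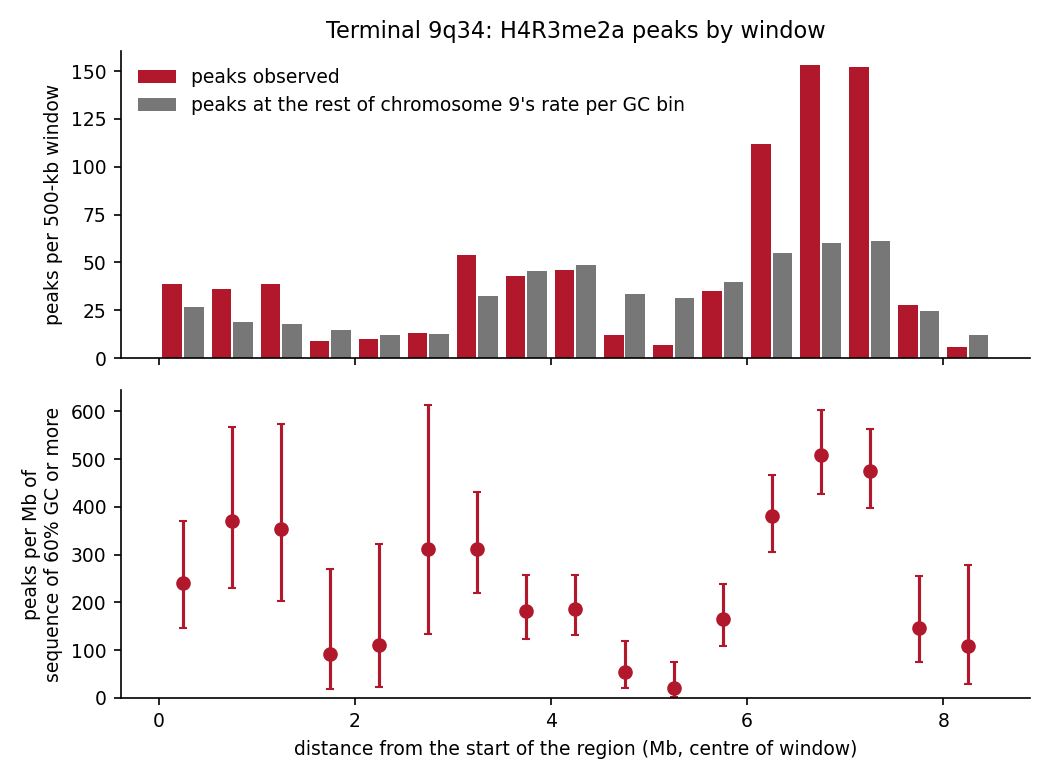
Peaks per 500-kb window along terminal 9q34, with distance in Mb from the start of the region. The upper panel sets observed peaks (red) beside the number at the rest of chromosome 9's rate in each 5% bin of GC content (grey), and the lower panel gives peaks of 60% GC or more per Mb of such sequence with 95% Poisson intervals. The 3 windows of 112, 153 and 152 peaks stand above their grey bars and the windows of 12 and 7 peaks stand below theirs.

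The ratio of densities was smaller at matched base composition. Sequence within 200 bp on either side of a position averaged 52.6% GC in terminal 9q34 and 40.4% in the rest, and sequence of 60% GC or more made up 24.4% of the region and 1.67% of the rest. Members averaged 62.6% GC (SD over peaks 5.63) and the peaks of the rest 57.7% (SD 7.34). At the rest's rate per 5% bin of GC content, the region would have held 548 peaks, so 794 is a ratio of 1.45 (1.30 to 1.61), and 1.39 (1.25 to 1.55) with 2% bins. The rest's rates include the 2.5 Mb directly before the threshold, which held 309 of its 941 peaks. The ratio given GC content depends on that stretch and was not computed without it. The ratio differed between bins without a steady order. At 50 to 55% GC it was 1.52 (1.12 to 2.05). At 55 to 60% GC the density was 92.9 per Mb in terminal 9q34 and 85.3 in the rest, a ratio of 1.09 (0.877 to 1.35), which includes equality. At 60 to 65%, with 307 members, it was 236 and 174 per Mb, a ratio of 1.36 (1.14 to 1.63). At 65 to 70% it was 404 and 217 per Mb, a ratio of 1.86 (1.44 to 2.41). At 70 to 75% it was 395 and 191 per Mb, a ratio of 2.07 (1.29 to 3.32). At 75 to 80% the ratio was 1.01 (0.395 to 2.39), from 9 members.

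**Figure D2:**
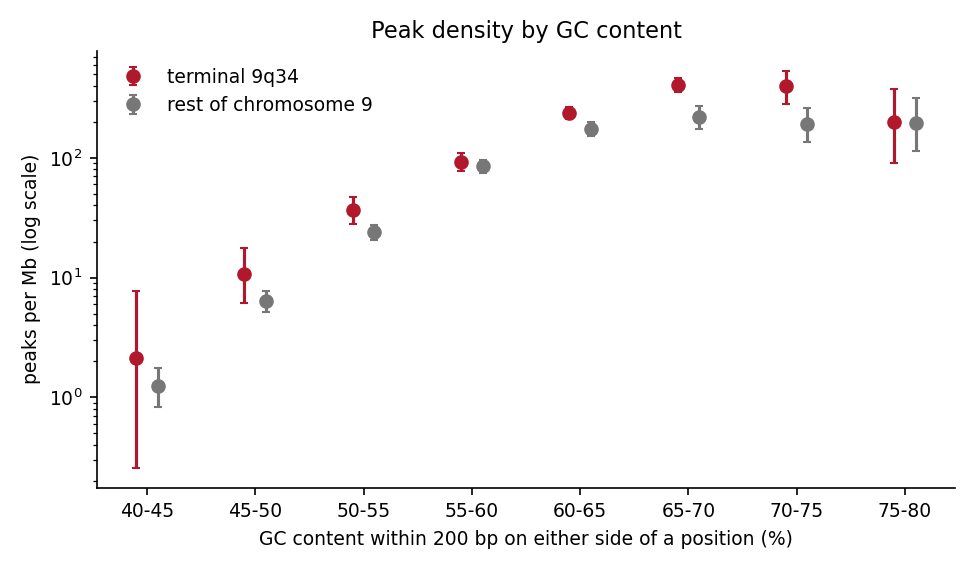
Peaks per Mb (log scale) by the GC content within 200 bp on either side, for terminal 9q34 (red) and the rest of chromosome 9 (grey), with 95% Poisson intervals. Both rise with GC content up to 65 to 70%, and at 65 to 70% the region's 404 per Mb lies above the 217 of the rest.

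Windows of similar GC content within the region still differed. The SURF window, the COL5A1 window and the PPP1R26 window averaged 52.7%, 53.0% and 53.1% GC and held 54, 12 and 7 peaks. The windows led by CCDC187, NOTCH1 and EXD3 had 2.03, 2.54 and 2.48 times the number of peaks given by the rest's rates. Outside that stretch the PLPP7 window had 2.17 times, the FIBCD1 window 1.89 times, the SURF window 1.67 times and the NCS1 window 1.47 times. The windows led by VAV2 and RXRA, also GC-rich, had 0.944 and 0.948 times. Those led by COL5A1, which codes for a fibrillar collagen chain, and PPP1R26 had 0.356 and 0.222 times. The excess was not particular to the region. Directly before the threshold, in the rest itself, the windows led by NIBAN2, DNM1 and PKN3 had 3.47, 3.13 and 2.70 times. Those led by ENSG00000235007 and PRRX2 had 1.74 and 1.96 times. Counted only in sequence of 60% GC or more, the NOTCH1 window had 509 peaks per Mb (427 to 602), the VAV2 window 182 (123 to 258) and the PPP1R26 window 20.6 (2.49 to 74.3). These intervals do not overlap, but the NOTCH1 and PPP1R26 windows had the highest and lowest such density of the region's windows. The intervals also treat peaks as independent, while 36.1% of members had another summit of the region within 1 kb. The gap between the intervals is therefore no test of a difference, and the values describe these windows only. The NOTCH1 window held the 5' ends of 26 protein-coding genes, the VAV2 window 6 and the PPP1R26 window 3, and the part of gene number in the difference was not tested. In such sequence the NIBAN2 window, before the threshold, had 538 peaks per Mb (397 to 714), an interval that overlaps that of the NOTCH1 window.

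By feature class, the largest group of members lay in introns. A summit within 1 kb of any annotated TSS of a protein-coding gene counted as promoter. The remaining summits counted as UTR, coding, non-coding exon, intron or intergenic, and the class named earlier took precedence. Introns held 354 members, or 44.6% (41.1 to 48.1%), against 44.2% (41.0 to 47.4%) in the rest. Promoters held 201, or 25.3% (22.3 to 28.5%), against 30.9% (28.0 to 34%), and the intervals overlap slightly. Intergenic sequence held 148 or 18.6%, against 16.3%, 3' UTRs 46 or 5.79%, against 4.04%, coding sequence 33 or 4.16%, against 2.87%, and non-coding exons 12 or 1.51%, against 1.38%, all with overlapping intervals. No member lay in a 5' UTR outside promoters, which allows a share of up to 0.464% by the exact interval, and 3 peaks of the rest did. The lower promoter share depends on the promoter's width: within 3 kb of a TSS it was 48.6% in terminal 9q34 and 44.8% in the rest, and at a −log10 q of at least 5 it was 42.4% of 33 members and 34.5% of 29 peaks in the rest.

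Per Mb of each class, terminal 9q34 exceeded the rest in all classes but the 5' UTR, and unequally. Promoter sequence held 219 summits per Mb in the region and 79.3 in the rest, a ratio of 2.76 (2.29 to 3.31). In introns the ratio was 11 (9.51 to 12.7), from 79.7 and 7.25 per Mb, and in intergenic sequence it was 19.1 (15.1 to 24.1), from 59.9 and 3.15 per Mb. Coding sequence had 223 and 43.5 per Mb, a ratio of 5.13 (2.99 to 8.86), and 3' UTRs 192 and 25.8 per Mb, a ratio of 7.44 (4.74 to 11.7). Promoters made up 11% of the region's sequence and 3.23% of the rest, so promoter summits stood at 2.30 times their share of sequence in terminal 9q34 and at 9.56 times in the rest. The mean GC content of promoter sequence was 58.9% in the region and 48.0% in the rest, and that of intergenic sequence 51.7% and 39.6%. Its part in these ratios was not tested. Intergenic members lay a median of 12 kb from the nearest protein-coding TSS, against 20.8 kb in the rest.

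**Figure D3:**
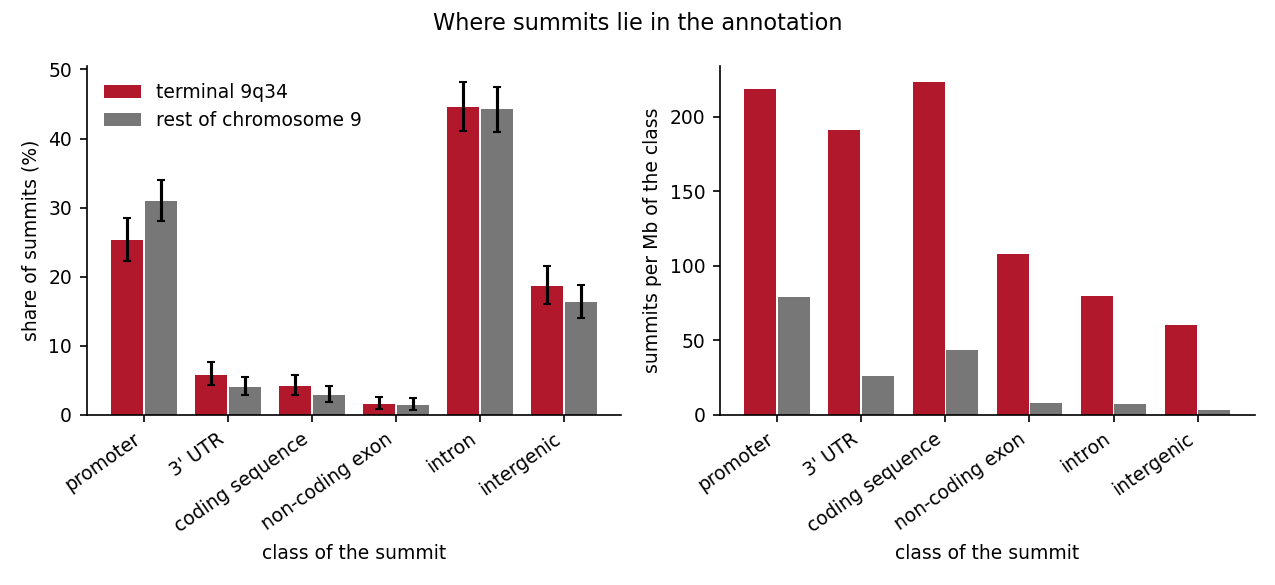
Share of summits in each feature class with 95% exact intervals (left) and summits per Mb of that class (right), for terminal 9q34 (red) and the rest of chromosome 9 (grey). Shares are alike, with promoters at 25.3% in the region and 30.9% in the rest, while the density of promoters is 219 per Mb in the region and 79.3 in the rest.

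The dense stretch around NOTCH1 differed from the other windows of the region in its classes. Promoters held 30.9% of its 417 summits (26.5 to 35.6%), against 19.1% of 377 (15.3 to 23.4%) in the other windows. It held 73 protein-coding 5' ends in 1.5 Mb, with 5.71 peaks per gene, against 88 in 6.83 Mb, with 4.28 peaks per gene. Its median pileup was 12 fragments (11 to 12), against 10 (10 to 10). The stretch was chosen for its number of peaks, so these values describe it. The share of promoter sequence in each part was not computed, and the part of gene number in the promoter share was not tested.

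The peaks of the region rested on more fragments than those of the rest. The median pileup at the summit, a number of fragments not scaled to depth, was 11 (quartiles 10 and 13, range 5 to 20) in terminal 9q34 and 9 (quartiles 7 and 11, range 5 to 21) in the rest. A pileup of 12 or more was reached by 40.3% of members (36.9 to 43.8%) and 14.7% of the rest (12.5 to 17.1%). The local background, recovered from pileup and fold, was also higher, with a median of 1.81 fragments (1.75 to 1.88) in the region and 1.23 (1.17 to 1.30) in the rest. The median fold was 4.16 (4.10 to 4.24) in terminal 9q34 and 4.28 (4.15 to 4.34) in the rest, so the higher pileup came with no higher fold. Among peaks of 65 to 70% GC, the median pileup was 12 fragments in the region and 10 in the rest, over backgrounds of 2.05 and 1.30. At 55 to 60% GC the median pileup was 10 in both, over backgrounds of 1.66 and 1.46. The part of the background in the pileup was not tested.

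Few members were strong. Only 20 members (2.52%) had a fold of at least 6, against 3.29% in the rest, and a −log10 q of at least 5 was found for 33 members (4.16%), against 3.08% in the rest, with overlapping intervals in both cases. By window, the median pileup was highest at 12 fragments in the windows led by KCNT1, NOTCH1 and EXD3 and lowest at 8 in the window led by RAPGEF1. Members were wider, with a median of 198 bp (187 to 207) against 178 bp (173 to 186) in the rest. They also lay closer together: 36.1% had another summit of the region within 1 kb, against 19.6% in the rest, and joining peaks less than 1 kb apart left 577 of 794, against 821 of 941.

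**Figure D4:**
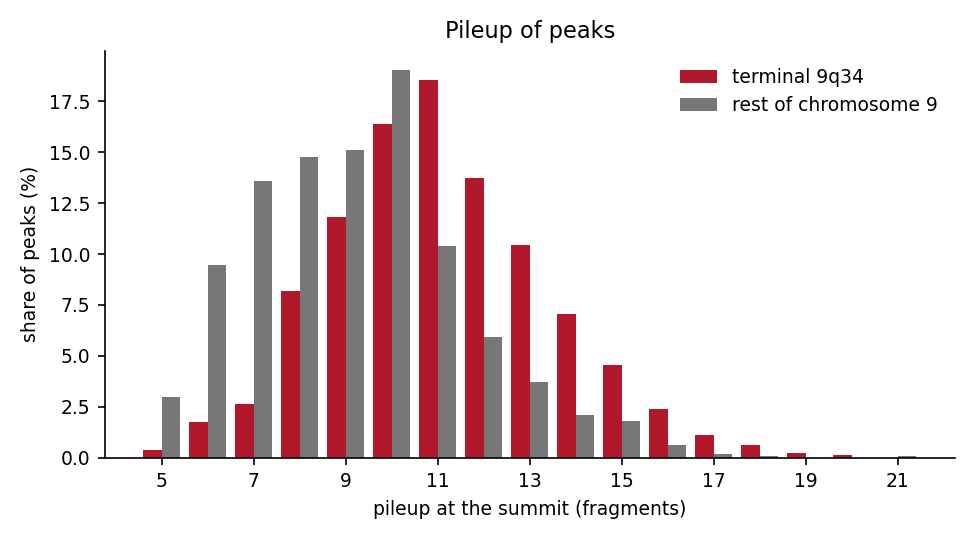
Share of peaks by pileup at the summit (fragments) for terminal 9q34 (red) and the rest of chromosome 9 (grey). The region's peaks centre on 11 fragments and those of the rest on 9.

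The member with both the highest fold and the highest pileup lay in GRIN1, which codes for the obligatory subunit of NMDA receptors. That peak, chr9:137164362-137165063, had 20 fragments and a fold of 8.02, and its summit lay 178 bp upstream of an internal TSS and 26593 bp downstream of the gene's 5' end. The next folds were 7.87 at TMEM141, 204 bp from its TSS, and 7.66 at FNBP1, a membrane-bending F-BAR protein gene, 452 bp from a TSS over the lowest recovered background of 0.697 fragments. A pair of intergenic peaks followed, the peak near LHX3 shown above with 7.38 and chr9:136107314-136107726 with 7.36. The promoters of UAP1L1 (7.05), AGPAT2, an acyltransferase of phosphatidic acid synthesis (6.80), SURF4, a cargo receptor of the endoplasmic reticulum (6.66), and GPR107 (6.56), and the 3' UTR of RABL6 (6.65), completed the 10 highest. The GPR107 summit lay 64 bp from an internal TSS and 54157 bp downstream of the gene's 5' end. A low background raises the fold, so the list of the 10 highest is an order of ratios and not of amounts of H4R3me2a.

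High pileups were found in other genes as well. GPSM1, a modulator of G-protein signalling, had intronic peaks of 19 and 18 fragments, and RABL6 an intronic peak of 18. A peak in coding sequence of NELFB, a subunit of the negative elongation factor that holds paused RNA polymerase II, had 18 fragments over a background of 3.59 and a fold of 4.14. A promoter peak 851 bp from the TSS of the lipocalin gene LCN6 also had 18, as did an intergenic peak 16068 bp from a TSS of UBAC1. An intergenic peak with 19 fragments near FIBCD1, chr9:130958717-130958873, had a background of 5.12 fragments, at the top of the region's range, and its central 32 bases occurred 19 times in the genome. The widest member, 1291 bp, lay in an intron of UAP1L1 with 13 fragments, and the next, of 986 bp, lay in coding sequence of NOXA1, an activator of an NADPH oxidase.

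Most genes of the region had a called peak in the body or at a promoter, and neighbouring or overlapping genes can share a peak. A promoter peak was found at 107 of 161 protein-coding genes, 66.5% (58.6 to 73.7%), against 31.8% of the genes in the rest of chromosome 9 and 31.6% of 19970 genes on chromosomes 1 to 22 and X. A summit in the gene body or at a promoter was found for 134 genes, 83.2% (76.5 to 88.6%), against 48.9% in the rest and 47.2% of all genes. The excess held at gene 5' ends alone, with 69 genes or 42.9% (35.1 to 50.9%), against 19.0% (16.0 to 22.3%) in the rest. Genes of the region were shorter than those of the rest, with a median of 12 kb against 33.1 kb, and had a median of 5 annotated TSSs against 4. More than 1 promoter peak was found at 56 genes, and the best promoter peaks had a median fold of 4.67 (range 3.09 to 8.02). Of these best peaks, 55 of 107 lay within 1 kb of the gene's own 5' end. The others lay within 1 kb of an internal TSS, and that of C8G had its summit beyond the gene's 3' end.

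Around canonical TSSs summits lay more often on the transcribed side. Between 100 and 600 bp from them, terminal 9q34 had 38 summits downstream and 13 upstream, a ratio of 2.92 (1.52 to 5.98). In the rest of the chromosome the numbers were 74 and 11, a ratio of 6.73 (3.55 to 14.1), and the intervals overlap.

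Several genes held many summits in their bodies. VAV2, a guanine nucleotide exchange factor for small GTPases, had most with 23 in 231 kb, followed by RXRA with 22 in 123 kb, CCDC187 with 21 in 56.9 kb, EXD3 with 21 in 116 kb and NOTCH1 with 20 in 51.6 kb. NACC2, a BTB-domain transcriptional repressor, had 17 and GPSM1 16, NCS1, a neuronal calcium sensor, 14, and the lipid transporter ABCA2 12. FIBCD1, PLPP7, KCNT1, GRIN1, PNPLA7 and ENSG00000285245, a gene with no symbol in the annotation, tied at 11, and ENSG00000285245 overlaps RALGDS, which had 10. Per 10 kb of gene, ABCA2 had 5.53 summits, GPSM1 4.98, NOTCH1 3.87, CCDC187 3.69, NCS1 2.16, NACC2 1.92, EXD3 1.81, RXRA 1.78 and VAV2 0.997. The EXD3 and NACC2 rates lay below the densities of their windows, 304 and 224 peaks per Mb. The other rates lay above those of the windows of their 5' ends, such as 306 per Mb for NOTCH1 and 92.5 per Mb for RXRA. The rate in VAV2 was close to the region's mean density of 95.3 peaks per Mb, so its high count went with its length. Introns held 20 of the 23 summits in VAV2 and 21 of the 22 in RXRA. In the 9 genes with 12 or more summits the pileups ran from 7 to 19 fragments, and the folds stayed between 2.67 and 6.53.

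NOTCH1, the gene of a receptor that is cleaved to release a transcriptional regulator, shows how such summits are laid out. Its 20 summits had a median pileup of 11.5 fragments (range 9 to 17) and a median fold of 4.14 (range 2.84 to 5.90). Of these, 15 were intronic, 4 fell within 1 kb of an annotated TSS and 1 lay in an exon of a non-coding gene. The first summit lay 1027 bp downstream of the 5' end, with 11 fragments and a fold of 5.01. Another 10 lay between 10922 and 19995 bp from the 5' end, among them both summits with 17 fragments, at 15978 and 19590 bp. The background was 1.39 fragments at the first summit. It was highest, at 3.59, at the summit 29829 bp downstream, which had 12 fragments and the lowest fold of the gene, 2.84.

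**Figure D5:**
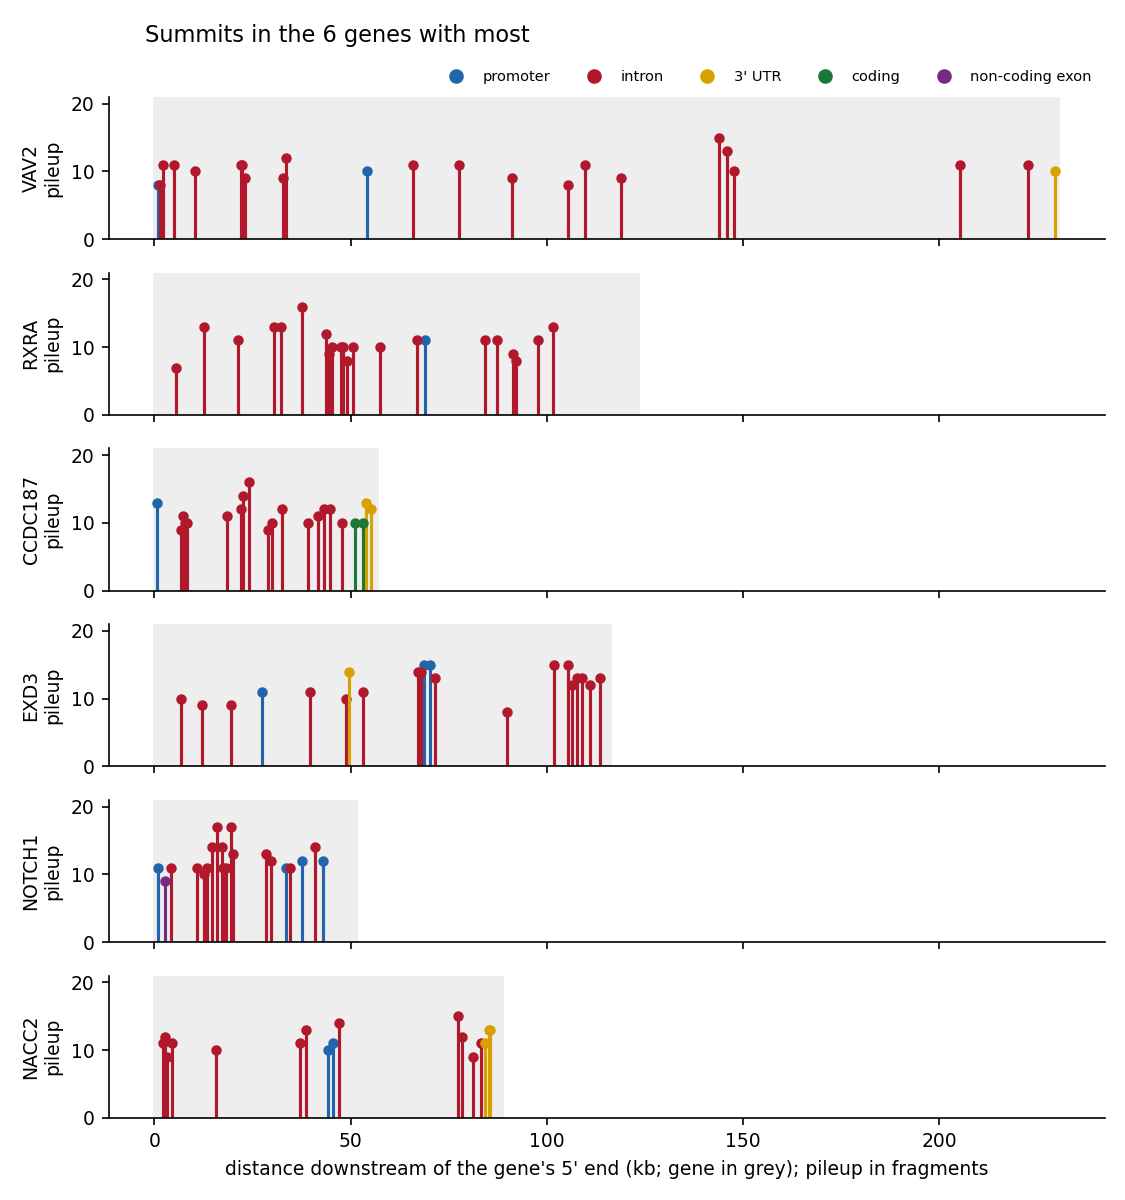
Pileup in fragments of every summit in the 6 genes with most, by distance in kb from the gene's 5' end, with the gene in grey and colours for feature classes. Intronic summits (red) make up 20 of 23 in VAV2 and 15 of 20 in NOTCH1, where 10 lie between 10922 and 19995 bp.

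By function, 7 lists of genes in the region were described beside the region's own share of 66.5% and the 31.6% of all genes with a promoter peak. The lists were chosen with earlier results of these data known, so their shares describe these genes only. A promoter peak here can lie at an internal TSS. The peaks of SEC16A, COL5A1, ANAPC2 and CARD9 lay 27988, 10984, 9021 and 6472 bp from the gene's 5' end. The lists share members: BARHL1, CEL, DBH, EDF1, EGFL7, LHX3, NACC2, NTNG2, OLFM1, PRDM12, PTGDS and RXRA stand in 2 lists each. Of 20 genes of Notch, kinase and small GTPase signalling, 18 had a promoter peak (90%, 68.3 to 98.8%), with the highest folds at FNBP1 (7.66), STKLD1 (6.66), TSC1, which restrains the mTOR pathway (5.93), and CARD9, an adaptor of innate immune signalling (5.69). RAPGEF1 had summits in the body alone, and NRARP, an inhibitor and target of Notch, had none. ABL1 had a promoter peak of fold 4.12 with 6 fragments, 214 bp downstream of the 5' end, and EGFL7, a secreted vascular protein, had 5 summits in its body. The peak of STKLD1 is also that of SURF4, and the peak of TSC1 also lies at the promoter of GFI1B, so these are not separate observations.

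Among 21 genes of chromatin, transcription and elongation, 14 had a promoter peak (66.7%, 43 to 85.4%), led by GFI1B, a repressor of blood lineages (5.93), ZMYND19 (5.52), NELFB (4.87) and the Mediator subunit gene MED22 (4.67). EHMT1, which methylates lysine 9 of histone H3, had 8 summits in its body of 251 kb and a best promoter peak of fold 4.34, which lay 134381 bp from the 5' end. WDR5, a shared subunit of histone methyltransferase complexes, had a promoter peak of fold 4.26 with 12 fragments. BRD3, a reader of acetylated histones, had 5 summits in its body and none at a promoter, and BARHL1, SOHLH1 and TTF1 likewise had summits in the body alone. MED27 and PRDM12 had none.

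The housekeeping list, of ribosomal, mitochondrial and other general genes, had 13 of 20 with a promoter peak (65%, 40.8 to 84.6%), led by SURF4, FBXW5, a substrate adaptor of a ubiquitin ligase (6.44), SEC16A, which organises exit sites of the endoplasmic reticulum (5.56), and ANAPC2, a subunit of the anaphase-promoting complex (5.10). EXOSC2, MRPL41, PHPT1 and SURF1 had no summit. Genes of metabolism and glycosylation had 14 of 22 (63.6%, 40.7 to 82.8%), led by UAP1L1, AGPAT2, SLC2A6, a sugar transporter of the GLUT family (5.46), and ENTPD8, an ectonucleotidase (5.38). The ENTPD8 summit lay 3176 bp downstream of the gene's 5' end, and its central 32 bases occurred 2 times in the genome. ABO, the blood group glycosyltransferase gene, had 2 summits in its body and none at a promoter, and POMT1 and DBH had no summit.

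The tissue-restricted lists had lower shares, with intervals that include 66.5%. Neuronal genes had 8 of 15 (53.3%, 26.6 to 78.7%), led by GRIN1, KCNT1, a sodium-activated potassium channel (5.64), NTNG2, a netrin-related adhesion protein (4.97), and QRFP, a neuropeptide precursor (4.81). The calcium channel gene CACNA1B had 7 summits in its body and none at a promoter, and DBH, LRRC26, OLFM1, PRDM12 and PRRT1B had no summit. Genes of matrix and secreted proteins had 7 of 15 (46.7%, 21.3 to 73.4%), led by FIBCD1 (5.66), NTNG2, MAMDC4 (4.92) and COL5A1 (4.40), and FCN1, FCN2, GLT6D1 and OLFM1 had no summit. Lipocalins, small carriers of hydrophobic molecules, had 6 of 13 (46.2%, 19.2 to 74.9%), led by LCN6 (6.23), C8G, a chain of a complement component (6.01), LCN15 (5.59) and PTGDS, a prostaglandin synthase (4.89). The lipocalins LCN8, LCN9, LCN12, OBP2A and PAEP had no summit. In all, 27 of the 161 genes had no summit in the body or at a promoter.

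The members shared sequence features in step with their GC content. In the 201 bases around the summit, the median number of CpGs was 6 in terminal 9q34 and 4 in the rest. The GC box GGGCGG, on either strand, was found in 22% of members (19.2 to 25.1%), against 15.4% (13.2 to 17.9%) of peaks in the rest and 11.1% of all tiles of that length in the region. Among sequences of 60 to 70% GC the box was in 21.8% of members (18.3 to 25.5%), 21.8% of peaks in the rest (17.5 to 26.7%) and 20.4% of the region's tiles (19.6 to 21.2%). The E-box CACGTG was in 5.67% of members (4.16 to 7.51%), 3.29% of peaks in the rest (2.25 to 4.64%) and 4.40% of the region's tiles. At 60 to 70% GC it was in 5.34% of members (3.58 to 7.63%) and 6.27% of the region's tiles (5.80 to 6.77%). The motifs can share letters where they adjoin, and a match describes these letters only.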

How the data were processed

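H4R3me2a chromatin and input DNA from HCT116 cells gave 1 library each. The submitters' processing notes name Bowtie2, MACS2, deepTools and the build GRCh38, with no versions or parameters. The deposited table holds, per the file headers, the authors' summit signal (pileup, in fragments), the fold enrichment as a ratio over local background, and −log10 p-values and q-values. The deposited interval list repeats its fold, p and q for all 33353 peaks. The sources used here do not give library depth, so the pileup alone shows the fragments behind a value.

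The background was recovered as (pileup + 1) / fold − 1, which gave back the deposited −log10 p to within 0.05 in all 33353 peaks. Classes and genes came from GENCODE release 44 and sequence from GRCh38. GC content was taken over 200 bp on either side. Intervals are Clopper-Pearson for shares, exact Poisson or conditional binomial for densities and their ratios, binomial ranks for medians and a normal approximation on the log scale for GC-standardised ratios. Copies of the central 32 bases were counted by exact match. Tiles of the rest were taken at every 10th position. Functions were tested on simulated data. Python 3.11.15, NumPy 2.4.6, pandas 2.3.3 and SciPy 1.17.1 were used.

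The region, gene lists and rules were chosen with earlier results of these data known. Named genes are those of the 10 highest folds, 10 highest pileups and 5 widest peaks, the 10 genes with most summits, the leading gene of each window and up to 4 per list by promoter fold. Others (genes without summits, and ABL1, EHMT1, WDR5, BRD3, EGFL7, ABO and CACNA1B) were added after their values were seen. Of 116 listed symbols, 114 lay in the region. The densest 1.5 Mb, the 2.5 Mb before the threshold, the density in sequence of 60% GC or more, the motifs and the 32-base copies were chosen after seeing the data. Some items are not reported here. Alternatives were stricter peak sets, merging, other thresholds, promoter widths, TSS sets and windows.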

Additional observations from a re-analysis of the deposited data

How the results depend on the processing

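The density ratio of 11.5 was 15.5 with a −log10 q of 5 or more, 13.1 for the upper 50% by −log10 q, 9.57 after merging, 13.1 with N included, 16.7 without the 2.5 Mb before the threshold (an alternative chosen after seeing the data), and 1.45 and 1.39 given GC content in bins of 5% and 2%. The promoter share turned from lower to higher than in the rest with a −log10 q of 5 or more (42.4%) and with a 3-kb window (48.6%). It stayed lower than in the rest at 14.5% with a 500-bp window, 9.19% with gene 5' ends and 22% without coding sequence. The median pileup was 15 with a −log10 q of 5 or more, 12 with a fold of 4 or more, 12 for the upper 50%, and 8.96 less background. Genes with a promoter peak numbered 17 with a −log10 q of 5 or more and 69 with gene 5' ends. Windows shifted by 250 kb put 48.6% of members in the densest 1.5 Mb. The cause was not tested beyond what each setting changes. No paired analysis was possible because each group has 1 library. Windows of few peaks have wide intervals, and library depth is unknown.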

Other observations

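Repeated sequence was a small part of terminal 9q34. The central 32 bases occurred once in the genome in 780 of 794 members and more often in 14, against 47 of 941 peaks in the rest of chromosome 9. In PRRC2B, 2 intronic peaks had 59 and 178 copies under 6 and 5 fragments. EHMT1 held 3 such intronic peaks, with 5, 4 and 20 copies under 8, 7 and 8 fragments. Words of 12 bases repeated within the 201 bases around the summit made up 20% or more of them in 21 members (2.64%, 1.64 to 4.01%), against 1.17% (0.585 to 2.08%) of peaks in the rest and 3.40% of the region's tiles.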
